A study of Arabidopsis thaliana with 28 samples.

Results

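The transcriptome of dark-grown Arabidopsis thaliana seedlings after 36 h of abscisic acid was compared with that of mock-treated seedlings of the same age. Whole Col-0 seedlings grew for 3 days in the dark on nylon mesh in hydroponic medium before treatment. The ABA group received 10 µM abscisic acid (ABA) for 36 h and the mock group received ethanol, the solvent, for the same time. Each group had 2 libraries, so 4 of the 28 libraries of the time course enter the comparison, which covered all 18310 genes of the deposited table. All seedlings were wild type, whole seedlings pool root, hypocotyl and cotyledons, and nothing in the labels tells whether the 2 replicates came from different cultures, so the p-values cover only the spread between libraries, which was estimated over all 28 and may be technical.

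Abscisic acid is a plant hormone that accumulates in drying tissue and in maturing seeds. In the core pathway the hormone binds PYR/PYL receptors, the bound receptors inhibit clade A protein phosphatases 2C, and SnRK2 kinases released from these phosphatases activate bZIP factors of the ABF and ABI5 type. These factors bind ABA-responsive elements, whose core is ACGTG, in the promoters of genes for protective proteins, for ABA breakdown and for the phosphatases themselves. ABA is also known to hold back germination and seedling growth, to close stomata and to promote suberin deposition in the root endodermis.

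Levels are given in RPKM, reads per kilobase of counted length and per 1000000 reads. Differences are ABA minus mock on the log2(RPKM + 1) scale ± the standard error of the limma model, and this scale understates the change of weakly expressed genes. A gene was said to rise or fall when its adjusted p was under 0.05 (limma with Benjamini-Hochberg adjustment over all genes tested). Reads in the genes of the table, in units of 1000000, were 18.4 and 21.1 in ABA and 18.2 and 20.7 in mock. Levels correlated across genes with Pearson's r of 0.981 between the ABA libraries and 0.980 between the mock libraries, a description in which genes are not independent replicates.

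After 36 h, 2531 genes (13.8% of 18310) differed between ABA and mock seedlings. Of these, 1508 (8.24% of all genes) were higher and 1023 (5.59%) were lower in ABA. The ABA libraries did not overlap the mock libraries in any of the 2531 genes, and among all genes tested 47.8% had groups that did not overlap. The median difference was 0.006 over all genes and the median absolute difference of the genes that passed was 0.95. A difference of at least 1 was reached by 753 genes that rose (4.11%) and 429 that fell (2.34%). Large changes were mostly increases: 300 genes rose by at least 2 and 50 by at least 4, whereas 91 genes fell by at least 2 and 6 by at least 4. With each ABA library paired to the mock library of the same replicate number, 5443 genes passed, against 2531 without the pairing. Of these 5443 genes, 2923 were higher and 2520 (13.8% of all genes) were lower. The share of higher genes was thus 59.6% of calls without the pairing and 53.7% with it. With any 1 library left out, the count of genes changed by ABA at 36 h lay between 1680 (without mock replicate 2) and 1961, and 816 increases and 437 decreases passed whichever of the 4 libraries was left out. With the spread taken from the 4 libraries of 36 h alone, 1241 genes passed.

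**Figure D1:**
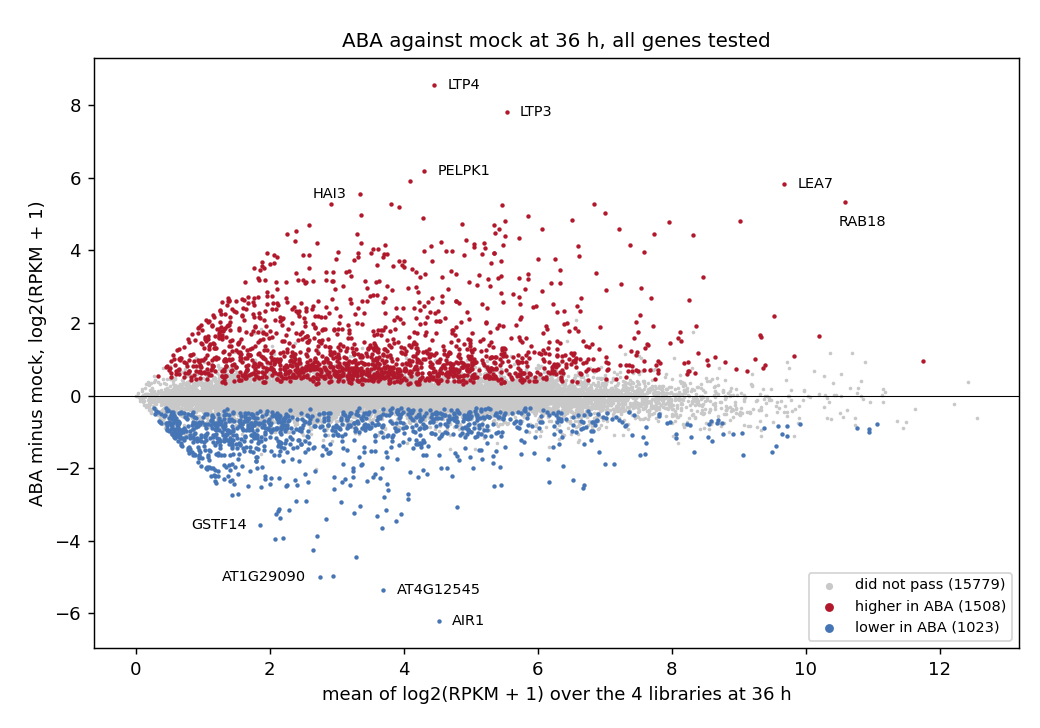
Difference between ABA and mock at 36 h for each gene (vertical axis, log2(RPKM + 1)) against its mean level over the 4 libraries at 36 h (horizontal axis, log2(RPKM + 1)). Red points are the 1508 genes that rose in ABA, blue points the 1023 that fell, and grey points the rest. RAB18 and LEA7 combine a large increase with a very high level.

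The promoters of 4 strongly increased genes are shown because they hold the letters to which ABF and ABI5 factors are known to bind. RAB18 encodes a dehydrin, LEA7 another late embryogenesis abundant protein, RD29B a protective protein long used as an ABA reporter gene, and HAI3 a clade A protein phosphatase 2C. Each sequence is the 250 bases before the annotated start of the gene in RefSeq build TAIR10.1, written in the direction of transcription. The windows are chr5:26519448-26519697 (minus strand), chr1:19619474-19619723 (plus strand), chr5:21236771-21237020 (plus strand) and chr2:12608425-12608674 (plus strand). Capitals mark ACGTG on either strand, which reads CACGT where it lies on the opposite strand.

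RAB18: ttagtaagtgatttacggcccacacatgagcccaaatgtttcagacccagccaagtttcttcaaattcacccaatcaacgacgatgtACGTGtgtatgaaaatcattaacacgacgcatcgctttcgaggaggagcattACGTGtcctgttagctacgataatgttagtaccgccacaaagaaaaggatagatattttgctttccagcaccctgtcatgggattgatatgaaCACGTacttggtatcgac
LEA7: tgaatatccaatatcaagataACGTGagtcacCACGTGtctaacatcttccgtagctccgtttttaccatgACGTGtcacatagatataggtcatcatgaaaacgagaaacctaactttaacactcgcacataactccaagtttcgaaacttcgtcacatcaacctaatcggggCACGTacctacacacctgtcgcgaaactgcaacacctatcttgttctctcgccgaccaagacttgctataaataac
RD29B: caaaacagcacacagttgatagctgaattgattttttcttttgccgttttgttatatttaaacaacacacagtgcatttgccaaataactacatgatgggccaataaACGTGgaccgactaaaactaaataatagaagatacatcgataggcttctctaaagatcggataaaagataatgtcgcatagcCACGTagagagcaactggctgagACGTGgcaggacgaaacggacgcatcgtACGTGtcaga
HAI3: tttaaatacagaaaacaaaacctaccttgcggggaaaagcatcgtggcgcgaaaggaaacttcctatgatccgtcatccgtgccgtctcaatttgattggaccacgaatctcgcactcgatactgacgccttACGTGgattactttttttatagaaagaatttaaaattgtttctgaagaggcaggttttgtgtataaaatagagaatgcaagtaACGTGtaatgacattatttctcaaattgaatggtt

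The RAB18 window held 3 matches to ACGTG, the LEA7 window 5, the RD29B window 4 and the HAI3 window 2, where matches on opposite strands may overlap. Of 18220 promoters of the same length, 24.1% held ACGTG on either strand at least once and 10.3% held it at least 2 times. Because CACGTG matches on both strands, 1 such site counts as 2 matches in all shares given here. Among the promoters of the 1508 genes that rose the shares were 40.5% and 23.9%, and among those of the 300 genes that rose by at least 2 they were 63.0% and 42.0%. Among the 1023 genes that fell the shares were 24.4% and 7.53%. The motif was present in 26 of 30 promoters of late embryogenesis abundant genes other than dehydrins, in 6 of 9 promoters of the clade A phosphatases in 4 of 14 promoters of suberin synthesis genes and in 0 of 13 promoters of plasma membrane aquaporins. The windows of LTP4 and LTP3, the genes with the largest increases, held 0 matches. CCGAC, the core of the dehydration-responsive element, was present on either strand in 15.8% of promoters of genes that rose, 10.5% of those that fell and 13.2% of all. CATGCA, the RY repeat of seed genes, was present in 12.2%, 12.0% and 7.73%, and in 10 of 12 promoters of seed storage protein genes. The motifs and the 4 genes were chosen after their values were seen, and the shares describe letters in a window and were not tested.

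The largest increases included genes of lipid transfer, cell wall and seed-type proteins. LTP4 (AT5G59310), a secreted lipid transfer protein, had 476 and 379 RPKM in ABA and 0.274 and 0 RPKM in mock, a difference of 8.56 ± 0.37 (limma adjusted p = 4.22e-11). The mock libraries held 3 LTP4 reads together, so the ratio of 3298 has a counting interval of 1128 to 15996 (95%, exact binomial, counting error only). Its neighbour LTP3 (AT5G59320) lies on the opposite strand of chromosome 5, with 2996 bases between the 2 genes. LTP3 had 592 and 824 RPKM in ABA and 1.86 and 2.32 RPKM in mock (7.83 ± 0.34, limma adjusted p = 4.22e-11). The 2 genes are similar in sequence, and how reads shared by paralogs were counted is not given in the sources used here. PELPK1 (AT5G09530), a proline-rich wall protein, had 141 and 198 RPKM in ABA and 1.35 and 1.26 RPKM in mock (6.19 ± 0.18), and the adjacent PELPK2 had 49.9 and 42.5 against 0 and 0.451 RPKM (5.29 ± 0.34). AT2G22510, annotated as a hydroxyproline-rich glycoprotein, had 207 and 83.6 RPKM in ABA and 1.49 and 0.973 RPKM in mock (5.90 ± 0.70). The other members of the 15 largest increases were LEA7, HAI3, RAB18, KIN1, AT1G27461, AT2G05510, GASA3, LTI30, AT4G31830 and EM1, with differences of 4.96 to 5.84. All 15 passed whichever of the 4 libraries was left out.

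The largest decreases included genes of secreted and wall proteins. AIR1 (AT4G12550), named for its induction by auxin in root cultures, had 1.24 and 2.18 RPKM in ABA and 363 and 107 RPKM in mock (-6.22 ± 0.85, limma adjusted p = 3.30e-05). The mock libraries stood far apart, yet both lay well above the ABA libraries. The nearby gene AT4G12545, of the same lipid transfer and 2S albumin superfamily, had 1.04 and 0.988 RPKM in ABA and 146 and 46.2 RPKM in mock (-5.37 ± 0.67). AT1G29090, a cysteine proteinase, had 0.228 and 0.16 RPKM in ABA and 29.3 and 46.3 RPKM in mock (-4.99 ± 0.24), and the extensin-like AT1G26250 had 0.774 and 0.0617 against 63 and 27.8 RPKM (-4.97 ± 0.58). PGAZAT, a polygalacturonase of the kind that dissolves pectin in cell separation, had 0.103 and 0.0301 RPKM in ABA and 15.3 and 15.9 RPKM in mock (-3.96 ± 0.23). GSTF14, a glutathione S-transferase, had 2 reads over both ABA libraries and 458 over both mock libraries, a ratio of mock over ABA of 231 (95% exact counting interval 63.7 to 1916). The rest of the 15 were AT4G07820, AT2G28780, AT5G23840, AT1G45015, AT1G23720, ACO3, GulLO5, AT3G23510 and the peroxidase AT5G64110, between -4.45 and -3.33. In whole seedlings, fewer cells of a type and less RNA per cell cannot be told apart.

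**Figure D2:**
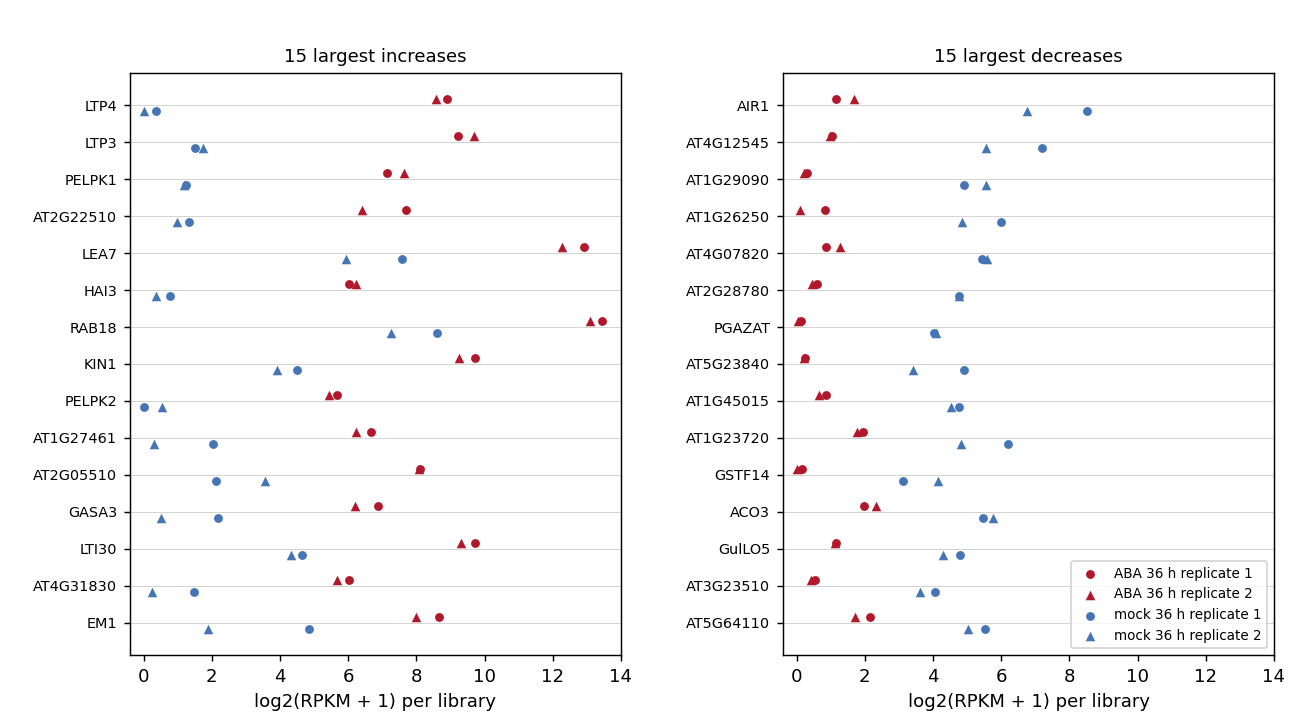
Level in each library, as log2(RPKM + 1) on the horizontal axis, of the 15 genes with the largest increase (left) and the 15 with the largest decrease (right), with ABA in red above mock in blue, circles for replicate 1 and triangles for replicate 2. No ABA point overlaps the mock points of its gene, and the mock values of AIR1, EM1 and LEA7 lie far apart.

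The most abundant transcripts of ABA seedlings included stress proteins that were far lower in mock. RAB18 had 11057 and 8655 RPKM in ABA and 387 and 152 RPKM in mock (5.33 ± 0.42, limma adjusted p = 5.14e-08), which made it the most abundant transcript of the ABA libraries. LEA7 followed with 7801 and 4913 RPKM in ABA and 189 and 60.4 RPKM in mock (5.84 ± 0.55). RAB18, LEA7, AIR1, AT4G12545 and AT1G26250 each overlap an annotated gene on the opposite strand, and whether counting used the strand is not given in the sources used here. RAB18 alone took 0.926% and 0.722% of reads in ABA and 0.0327% and 0.0127% in mock. RD29B was also among the 10 most abundant transcripts in ABA, with 3069 and 2451 RPKM against 147 and 63.7 RPKM in mock. GASA4, a gibberellin-regulated peptide, TIP1;2, a tonoplast aquaporin, CAT3, a catalase, and CAB1, a light-harvesting protein, were among the 10 most abundant in both groups and did not pass the test (differences of 0.38, -0.60, -0.23 and -0.36). TIP1;2 passed with quantile normalization (limma adjusted p = 0.0263) and with voom (adjusted p = 0.0234), and the difference of CAB1 was 0.20 without mock replicate 2.

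All 9 measured clade A phosphatases, the negative regulators of ABA signalling, rose. Their median difference was 2.52, against 0.006 over all genes. HAI3 had 63.6 and 73.7 RPKM in ABA and 0.716 and 0.278 RPKM in mock (5.55 ± 0.19, limma adjusted p = 1.66e-12). PP2CA had 201 and 229 RPKM in ABA and 24.9 and 23.2 RPKM in mock (3.11 ± 0.19), and ABI1 had 263 and 277 against 117 and 118 RPKM (1.20 ± 0.17). HAI2 (4.20), HAI1 (3.34), AHG1 (2.52), ABI2 (1.92), HAB1 (1.53) and HAB2 (0.84) completed the list, and every call passed whichever library was left out.

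Receptors were lower or did not pass. Of 8 measured PYR/PYL receptors, 0 rose and 3 fell, with a median of -0.80. PYL6 had 0.16 and 0.0469 RPKM in ABA and 2.58 and 2.62 RPKM in mock (-1.71 ± 0.20, limma adjusted p = 4.89e-06). PYL4 had 29.8 and 18.2 against 89.9 and 53.6 RPKM (-1.53 ± 0.34) and PYL5 18.6 and 24.9 against 40 and 46.9 RPKM (-0.98 ± 0.28). Without ABA replicate 2 the adjusted p of PYL4 was 0.0805, and without ABA replicate 1 that of PYL5 was 0.2 (limma). With the replicate pairing 7 of the 8 receptors fell, against 13.8% of all genes. PYR1 (-0.73), PYL8 (-0.88), PYL1 (-0.59), PYL9 (-0.38) and PYL7 (0.02) did not pass without it.

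Some of the kinases and bZIP factors downstream changed. Of 10 SnRK2 kinases, 4 rose (SNRK2.9, OST1, SNRK2.10 and SNRK2.1, by 0.59 to 0.86) and SNRK2-8 fell by 1.14, with 2 lower under the replicate pairing. SNRK2.2 and SNRK2.3, which act with OST1 in the ABA response, had differences of 0.00 and -0.13. The calls of SNRK2.10 and SNRK2.1 held whichever library was left out, and those of the other 3 did not, with limma adjusted p up to 0.0566 for SNRK2-8, 0.15 for OST1 and 0.197 for SNRK2.9. Of 7 bZIP factors 3 rose: ABF4 had 135 and 127 RPKM in ABA and 52.2 and 40 RPKM in mock, ABF2 67.8 and 56.2 against 27.4 and 19 RPKM (1.39 ± 0.20), and ABI5, the factor of seed and seedling arrest, 58.5 and 39.9 against 18.9 and 9.18 RPKM (1.79 ± 0.33). ABF3, at 283 and 253 against 194 and 140 RPKM, did not pass (0.70 ± 0.24, limma adjusted p = 0.0608, and 0.000151 with the replicate pairing, under which 6 of the 7 rose). AFP1, a repressor that binds ABI5, had 77.7 and 58.6 RPKM in ABA and 16.4 and 10.1 RPKM in mock (2.30 ± 0.35).

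Genes of both breakdown and synthesis of the hormone rose. Of 10 genes of ABA catabolism, conjugation and transport 5 rose and 5 did not pass, with a median of 0.67, and 4 of the calls held whichever library was left out. All 3 measured 8'-hydroxylases, which start ABA catabolism, rose. CYP707A1 had 71.8 and 104 RPKM in ABA and 12.8 and 18.7 RPKM in mock (2.41 ± 0.28, limma adjusted p = 5.24e-06), CYP707A2 6.84 and 6.38 against 0.961 and 0.516 RPKM (2.14 ± 0.21), and CYP707A3 25.5 and 21.7 against 7.41 and 7.37 RPKM (1.55 ± 0.24). BG1, the beta-glucosidase that releases ABA from its glucose ester, also rose, with 4.05 and 5.11 RPKM in ABA and 0.396 and 0.678 RPKM in mock (1.86 ± 0.15). Of 7 measured biosynthesis genes 3 rose (NCED9 by 1.31, ABA1 by 1.05 and AAO3 by 0.84). NCED9 and AAO3 lost the call without 1 library, with limma adjusted p up to 0.142 and 0.201. NCED3, the cleavage enzyme of drought responses, had 6.81 and 4.71 RPKM in ABA and 6.89 and 4.83 RPKM in mock (-0.02 ± 0.21).

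Several families of stress transcription factors had members that rose. The shares that passed were 50% of stress NAC, 57.1% of homeodomain leucine zipper, 56.2% of MYB, 22.2% of heat stress and 70% of NF-YA factors. They were 42.9% of CBF, DREB and related AP2 factors and 71.4% of zinc finger factors, against 13.8% of all genes. Of 10 stress NAC factors 5 rose, 4 of them whichever library was left out, and RD26 had 152 and 142 RPKM in ABA and 29.1 and 23 RPKM in mock (2.46 ± 0.15, limma adjusted p = 2.89e-09). HB7, a homeodomain leucine zipper factor of water deficit, had 326 and 244 against 22.7 and 17 RPKM (3.78 ± 0.28), and HB12 rose by 1.85. Of 16 MYB factors of stress and barrier lipids 9 rose, 5 of them whichever library was left out, and with the replicate pairing 10 rose and 4 fell. MYB41, a regulator of suberin and cutin genes, had 11.3 and 13.4 RPKM in ABA and 0.0584 and 0 RPKM in mock (3.69 ± 0.22), and MYB102 had 20.4 and 18.1 against 0.945 and 0.608 RPKM (3.52 ± 0.22). Of 9 heat stress factors 2 rose, with a median of 0.47, and 7 rose and 1 fell with the pairing. The largest difference among them was that of HSFA6A, which had 137 and 139 RPKM in ABA and 9.15 and 7.62 RPKM in mock (3.89 ± 0.25). RAP2.6, an ERF factor, had 147 and 126 against 6.83 and 7.22 RPKM (4.10 ± 0.19, limma adjusted p = 1.26e-10). Of 10 NF-YA factors 7 rose, by 0.53 to 1.26, and 3 of these calls held whichever library was left out. Of the zinc finger repressors AZF2, ZAT10 and ZAT6 rose (1.58, 1.42 and 1.24) and AZF1 fell by 1.02. ZAT5 fell by 0.59, with a limma adjusted p of 0.0497, and lost its call in each of the 4 fits that left out a library.

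Late embryogenesis abundant proteins, which protect membranes and proteins during drying, rose in large number. Of 30 measured members other than dehydrins 26 rose, with a median of 3.28, and of 9 dehydrins 6 rose, with a median of 2.32. Whichever library was left out, 18 of the 26 and 5 of the 6 calls held. AT3G17520 had 1503 and 1128 RPKM in ABA and 97 and 22 RPKM in mock (4.78 ± 0.67, limma adjusted p = 4.86e-05), and AT3G02480 had 939 and 1071 against 106 and 18.4 RPKM (4.46 ± 0.69). LEA4-5 had 747 and 654 RPKM in ABA and 66.3 and 22.3 RPKM in mock (4.15 ± 0.47). The dehydrin LTI30 had 835 and 632 RPKM in ABA and 24 and 19.1 RPKM in mock (5.02 ± 0.40). COR47, an abundant dehydrin with 3277 and 2061 against 1573 and 1178 RPKM, did not pass (0.93 ± 0.34, limma adjusted p = 0.08, and 0.00297 with the replicate pairing). ERD14 and HIRD11, at 0.55 and 0.31, did not pass either. Of 10 RD29, KIN and cold-regulated genes 7 rose: KIN1 had 850 and 607 RPKM in ABA and 21.4 and 14 RPKM in mock (5.29 ± 0.49), RD22 1481 and 1454 against 71.3 and 64.4 RPKM (4.42 ± 0.19), and RD29A 364 and 347 against 44.7 and 48.7 RPKM (2.90 ± 0.31).

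Genes of seed reserves were higher as well. Of 10 oil body proteins 8 rose, with a median of 2.80. OLEO2, an oleosin that coats oil bodies, had 305 and 184 RPKM in ABA and 26 and 4.03 RPKM in mock (4.35 ± 0.65, limma adjusted p = 9.56e-05). Of 12 seed storage proteins 10 rose, with a median of 2.83. The cruciferin CRA1 had 1000 and 576 RPKM in ABA and 199 and 10.9 RPKM in mock (3.96 ± 0.89, limma adjusted p = 0.00427), and PAP85, a vicilin-like protein, 275 and 158 against 23.1 and 2.18 RPKM (4.58 ± 0.72). The 8 oil body calls held whichever library was left out, and only those of AT2G28490 and PAP85 did so among the 10 storage protein calls. Without mock replicate 2 the limma adjusted p of CRA1 was 0.121 and that of CRC was 0.3. Of the factors that direct seed maturation FUS3 rose by 1.31 and DOG1, the dormancy gene, by 1.54. FUS3 lost its call without ABA replicate 1 (limma adjusted p = 0.0882). ABI3 had 7.36 and 3.54 RPKM in ABA and 5.03 and 3.89 RPKM in mock and did not pass (0.18 ± 0.26).

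These seed-type transcripts differed between replicates in both groups. Of the 61 measured dehydrins, other late embryogenesis abundant, oil body and storage protein genes, replicate 1 lay above replicate 2 for 55 in ABA and for 56 in mock, while over all genes it did so for 51.2% in ABA and 48.3% in mock. The median ratio of replicate 1 to replicate 2, after adding 1 RPKM, was 1.65 in ABA and 2.54 in mock. Together they made up 5.45% and 4.02% of summed RPKM in ABA and 0.914% and 0.614% in mock, so the groups did not overlap. Of the 61 genes 50 rose and 0 fell, and 34 (without mock replicate 2) to 51 (without ABA replicate 2) rose when 1 library was left out. What made replicate 1 higher was not tested. Without the 61 genes 1458 genes rose and 1023 fell.

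**Figure D3:**
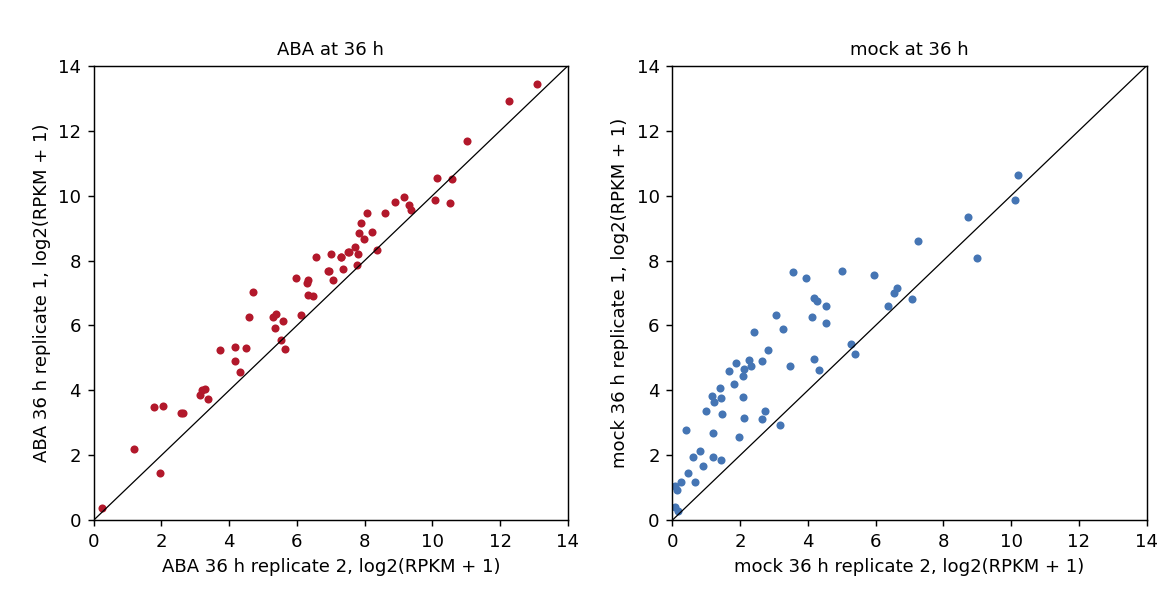
Level in replicate 1 (vertical axis) against replicate 2 (horizontal axis), both log2(RPKM + 1), of the 61 measured dehydrin, late embryogenesis abundant, oil body and seed storage protein genes, for ABA (left) and mock (right) at 36 h. The line marks equal levels, and 55 of 61 genes in ABA and 56 of 61 in mock lie above it.

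Genes for the breakdown of stored oil rose in a smaller share than those of seed reserves. Of 16 genes of fatty acid oxidation and the glyoxylate cycle 4 rose (25%, against 8.24% of all genes). Of these calls 2 held whichever library was left out, and the median was 0.07. With the pairing 6 rose and 4 fell. MLS, malate synthase, had 110 and 118 RPKM in ABA and 56 and 48.1 RPKM in mock (1.12 ± 0.21, limma adjusted p = 0.000961). ICL, isocitrate lyase, had 1189 and 1310 RPKM in ABA and 1102 and 1393 RPKM in mock (0.01 ± 0.44), and PCK1, the gluconeogenic carboxykinase, 836 and 877 against 889 and 841 RPKM (-0.02 ± 0.22).

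Genes for compatible solutes and sugar transport changed by member. P5CS1, the rate-limiting enzyme of proline synthesis under stress, had 134 and 133 RPKM in ABA and 18.6 and 20.6 RPKM in mock (2.71 ± 0.22, limma adjusted p = 6.57e-08). PDH2, a proline dehydrogenase, fell to 1.29 and 0.491 RPKM in ABA, against 9.78 and 6.43 RPKM in mock (-2.28 ± 0.40). Of 9 genes of galactinol and raffinose synthesis 2 rose and 1 fell, and 4 rose with the pairing. GOLS2, a galactinol synthase, had 59.6 and 37.9 RPKM in ABA and 3.75 and 1.5 RPKM in mock (3.82 ± 0.36). RS6, annotated as a raffinose synthase, had 314 and 561 RPKM in ABA and 1125 and 1368 RPKM in mock (-1.56 ± 0.41), and the summed level of the list was 656 and 1035 RPKM in ABA and 1321 and 1603 RPKM in mock. The calls of RS6 and GOLS1 were lost without 1 library (limma adjusted p up to 0.175 and 0.245). Of 25 sucrose, starch and SWEET transporter genes 11 rose and 2 fell, with 10 of these calls held whichever library was left out, and 5 fell with the pairing. SWEET15 had 31.5 and 27.6 RPKM in ABA and 0.0883 and 0.274 RPKM in mock (4.69 ± 0.27), whereas SWEET2, a vacuolar sugar transporter, had 6.46 and 11.4 against 37.1 and 48.4 RPKM (-2.17 ± 0.32). SUS3, a sucrose synthase of seeds, rose by 2.44 and SPS2F, a sucrose phosphate synthase, by 2.69.

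Suberin, the polyester of apoplastic barriers, had 12 of its 14 measured synthesis genes higher, with a median of 1.60. ABCG6, an ABC transporter needed for suberin, had 15.5 and 30.4 RPKM in ABA and 0.206 and 0.162 RPKM in mock (4.26 ± 0.22, limma adjusted p = 2.39e-10). The acyltransferases GPAT7 and GPAT5 had 13.6 and 16.4 against 0.0383 and 0.136 RPKM (3.88 ± 0.22) and 9 and 15.3 against 0.0298 and 0.106 RPKM (3.58 ± 0.17). ASFT, the feruloyl transferase of suberin, had 37.1 and 67.5 RPKM in ABA and 4.79 and 6.19 RPKM in mock (2.99 ± 0.23). FAR1 (0.35) and KCS20 (0.20) did not pass, and the 12 calls held whichever library was left out. Of 23 cuticular wax and cutin genes 8 rose, with a median of 0.39, led by the wax synthase WSD1 (2.41 ± 0.25) and CER1 of alkane synthesis (2.34 ± 0.47), and 3 of these 8 calls held whichever library was left out. With the pairing 12 rose and 2 fell.

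Genes of the Casparian strip, the lignin barrier of the same root layer, were lower or did not pass. Of 11 measured genes 0 rose and 3 fell (27.3%, against 5.59% of all genes), with a median of -0.82. With the replicate pairing 10 fell, against 13.8% of all genes. CASP4, a membrane scaffold protein of the strip, had 24.6 and 23.7 RPKM in ABA and 58.4 and 48.9 RPKM in mock (-1.11 ± 0.23, limma adjusted p = 0.00235). ESB1, which is needed for the strip to form, fell by 0.97, and without mock replicate 1 its limma adjusted p was 0.13. CASP1, at 154 and 98.5 against 293 and 157 RPKM, did not pass (-0.79). SCR, which marks the endodermis and the tissue below it, had 27.9 and 20 RPKM in ABA and 30.3 and 20.9 RPKM in mock (-0.09).

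**Figure D4:**
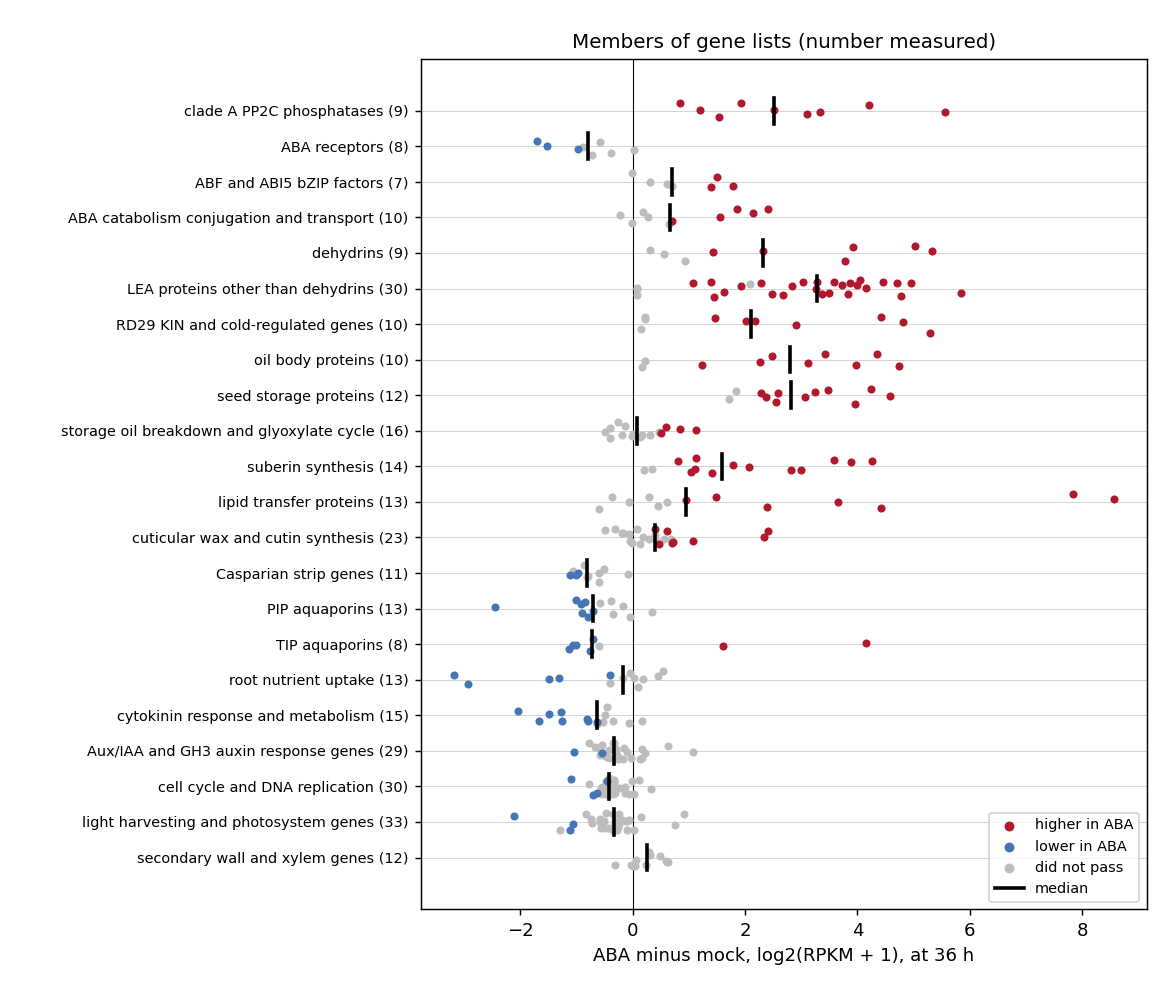
Difference between ABA and mock at 36 h (horizontal axis, log2(RPKM + 1)) of each measured member of 22 gene lists (rows, with the number measured), with points shifted up or down at random for visibility. Red points rose, blue points fell, grey points did not pass and bars mark medians, which run from 3.28 for late embryogenesis abundant genes other than dehydrins to -0.82 for Casparian strip genes.

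Part of the water channel and nutrient uptake genes fell. Of 13 plasma membrane aquaporins 7 fell and 0 rose, with a median of -0.71, and 1 rose with the pairing. PIP2;3 had 15.7 and 20 RPKM in ABA and 94.4 and 111 RPKM in mock (-2.46 ± 0.24, limma adjusted p = 6.90e-07). The abundant PIP2;7 had 1411 and 1451 RPKM in ABA and 2770 and 2677 RPKM in mock (-0.93 ± 0.21), and summed over the family the level was 7471 and 7835 RPKM in ABA and 12744 and 13189 RPKM in mock. Of the 7 calls 3 held whichever library was left out. Tonoplast aquaporins split by type: TIP3;1 and TIP3;2, known from seeds, rose (239 and 146 against 23.6 and 3.59 RPKM, 4.15 ± 0.58, for TIP3;1), and 5 of the other 6 fell, TIP2;3 by 1.13 and TIP1;1 by 1.06. Without 1 library, TIP3;2 and 3 of those 5 lost their calls. Of 13 root nutrient uptake genes 5 fell and 0 rose, and 4 of the calls held whichever library was left out. The ammonium transporter AMT1;3 had 0.326 and 0.571 RPKM in ABA and 11.3 and 13 RPKM in mock (-3.18 ± 0.16), the phosphate transporter PHT1;1 1.73 and 2.34 against 21.6 and 22.9 RPKM (-2.94 ± 0.20), and AMT1;1 10.9 and 10.4 against 28.4 and 28 RPKM (-1.32 ± 0.16). The nitrate transporters NRT2:1 (0.02) and NRT1.1 (-0.05) did not pass.

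Marker lists of cell types were read beside these root genes. For the 2 measured lateral root markers the differences were -0.43 and 0.05. Neither passed with limma, with voom or with the pairing, and 0 had an unadjusted p under 0.05. Of 5 markers of shoot epidermis and meristem 0 passed, 0 also at an unadjusted p under 0.05 and 0 with voom, and ATML1 had 38.8 and 33.3 RPKM in ABA and 36.6 and 35.8 RPKM in mock. Of 3 phloem markers 0 passed with limma, 1 had an unadjusted p under 0.05 0 passed with voom and 1 fell with the pairing, and SUC2 had 130 and 142 against 125 and 117 RPKM. Of 3 measured markers of root meristem and cap 2 fell: PLT1 had 0.134 and 0.0704 RPKM in ABA and 1.13 and 0.596 RPKM in mock, and SMB of the root cap 0.207 and 0.0604 against 1.7 and 0.92 RPKM. Without mock replicate 1 the limma adjusted p of PLT1 was 0.117. Of 10 root hair genes 1 passed and was lower (10%, against 13.8% of all genes), a call that was lost without 1 library. With the pairing 1 was higher and 2 were lower. Summed levels of the root hair list were 5.57 and 3.26 RPKM in ABA and 13 and 6.7 RPKM in mock. Those of the Casparian strip list were 765 and 597 RPKM in ABA and 1417 and 978 RPKM in mock. The part of tissue proportions in the aquaporin, nutrient and barrier results was not tested.

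Among other hormones, cytokinin genes moved in 1 direction where they passed. Of 15 measured 8 fell and 0 rose, with a median of -0.64, and 12 fell with the pairing, under which 13.8% of all genes fell. Only the calls of IPT5, CYP735A2, ARR6 and ARR5 held whichever library was left out. IPT5, an enzyme of cytokinin synthesis, had 0.109 and 0.127 RPKM in ABA and 3.54 and 3.71 RPKM in mock (-2.05 ± 0.17, limma adjusted p = 6.13e-08), and CYP735A2, which makes trans-zeatin, 0.099 and 0.0578 against 2.35 and 2.5 RPKM (-1.67 ± 0.14). The type A response regulators ARR6, ARR5 and ARR7 fell by 1.49, 1.28 and 1.26, and without mock replicate 2 the limma adjusted p of ARR7 was 0.0731. Of 29 Aux/IAA and GH3 genes, which respond to auxin, GH3.17 and BRU6 fell and 2 rose and 13 fell with the replicate pairing, and neither call held whichever library was left out (limma adjusted p up to 0.106 and 0.296). Of 17 auxin transport and synthesis genes 5 fell, by 0.47 to 0.72, and none of the 5 calls held whichever library was left out. In ethylene synthesis ACS7 had 10.1 and 10.9 RPKM in ABA and 0.29 and 0.257 RPKM in mock (3.17 ± 0.14, limma adjusted p = 4.22e-11), and ACO3 had 2.97 and 4 against 43.6 and 53 RPKM (-3.46 ± 0.19). Of 22 jasmonate genes 7 rose and 1 fell, 5 of these calls held whichever library was left out, and 11 rose with the pairing, with CYP94B3, which inactivates the active hormone, at 109 and 76.3 against 10 and 9.2 RPKM (3.12 ± 0.25). Of 19 brassinosteroid genes 4 fell and 0 rose, 2 of them whichever library was left out, and 1 rose and 10 fell with the pairing. The decreases were led by PRE1, a growth-promoting helix-loop-helix protein (-1.42 ± 0.21). The shares that passed were 53.3% of cytokinin, 6.9% of Aux/IAA and GH3 and 29.4% of auxin transport and synthesis genes. They were 36.4% of jasmonate and 21.1% of brassinosteroid genes, against 13.8% of all genes.

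Few cell cycle, expansin, light harvesting and clock genes passed in the fit without pairing, yet most had negative differences. These were 27 of 30 cell cycle, 17 of 20 expansin, 29 of 33 light harvesting and 12 of 16 clock genes. The medians were -0.41, -0.41, -0.34 and -0.12, against 0.006 over all genes. The shares that passed were 13.3% of cell cycle, 15% of expansin, 9.09% of light harvesting and 12.5% of clock genes, against 13.8% of all genes. Of 30 cell cycle and replication genes 4 fell and 0 rose, with a median of -0.41, and 12 fell with the replicate pairing. None of the 4 calls held whichever library was left out. AUR2, an Aurora kinase of cytokinesis, had 8.51 and 6.01 RPKM in ABA and 20.4 and 13.3 RPKM in mock (-1.10 ± 0.23, limma adjusted p = 0.00279, and 0.0682 without mock replicate 1). Of 20 expansins EXLB1 rose by 2.29 and EXPA14 and EXLA2 fell, with 9 lower under the pairing, and only the EXLB1 call held whichever library was left out. Of 33 light harvesting and photosystem genes 3 fell, all of them small subunits of Rubisco, of which the RBCS1B call held whichever library was left out, with 2 higher and 11 lower under the pairing, and RBCS1B had 9.36 and 5.59 RPKM in ABA and 22.4 and 53 RPKM in mock (-2.11 ± 0.38). Rubisco subunits were counted in that list, and none of its light-harvesting or photosystem proteins passed in the fit without pairing. Of 12 secondary wall and xylem genes 0 passed with limma, 0 had an unadjusted p under 0.05, 0 passed with voom and 4 were higher with the replicate pairing. Among 16 genes of chlorophyll breakdown and dark starvation 3 rose (18.8%, against 13.8% of all genes) and 0 fell, with a median of -0.19. Negative differences were seen for 10 of the 16, and 4 rose and 6 fell with the pairing. Their summed level was 6299 and 6993 RPKM in ABA and 9337 and 9169 RPKM in mock. SGR2 and PAO, genes of chlorophyll breakdown, were among the 3 and rose by 1.83 and 1.11. Of 16 clock genes 2 rose, CCA1 at 32.4 and 41.9 against 14 and 15.4 RPKM (1.27 ± 0.25) and RVE8 by 1.19, and with the pairing 4 rose and 5 fell. ADH1, alcohol dehydrogenase, had 53.7 and 60.4 RPKM in ABA and 3.32 and 3.57 RPKM in mock (3.70 ± 0.22), while PDC1 of the same fermentation pathway had a difference of 0.24 and did not pass.

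The effect at 36 h was set beside that at 24 h and 60 h, which have their own ABA and mock libraries. At 24 h 1216 genes (6.64%) were higher and 710 (3.88%) lower, and at 60 h 1435 (7.84%) were higher and 1050 (5.73%) lower. Of the genes that rose at 36 h, 71.8% also rose at 24 h and 78.8% at 60 h, and 960 rose at all 3 times. The shared genes were 89.1% of those that rose at 24 h and 82.8% of those that rose at 60 h. Of the genes that fell at 36 h, 56.4% also fell at 24 h (81.3% of the 24 h list) and 73.5% at 60 h (71.6% of the 60 h list), and 483 fell at all 3 times. LEA7 differed by 4.63 at 24 h, 5.84 at 36 h and 6.33 at 60 h, HAI3 by 5.44, 5.55 and 5.31, and AIR1 by -4.43, -6.22 and -6.32.

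Few genes passed the test of the difference between times itself. Between 36 h and 24 h 3 genes (0.0164%) had a larger ABA effect at 36 h and 0 (0%) a smaller one, while 279 had an unadjusted p under 0.05 and 0 passed with voom. They were the laccases LAC12 and LAC5, enzymes of lignin polymerisation, and BG1. LAC5 had 6.33 and 6.84 RPKM in ABA at 36 h and 0.0969 and 0.286 RPKM in mock, an effect of 2.67 at 36 h against 1.34 at 24 h (1.33 ± 0.21, limma adjusted p = 0.0439). Against 60 h, 2 genes (0.0109%) had a larger effect at 36 h, PELPK1 (1.66 ± 0.26) and UMAMIT14 (1.17 ± 0.18), and 1 gene (0.00546%), CYP71A12 of camalexin synthesis, a smaller one (-1.18 ± 0.17), while 255 had an unadjusted p under 0.05 and 0 passed with voom. These 6 calls were lost in 10 to 12 of their 13 or 14 alternatives, and in particular with the replicate pairing. The estimated effect was higher at 36 h than at 24 h for 14 of 14 suberin genes, against 49.8% of all genes and 229 of 290 ribosomal protein genes. Of the suberin genes 6 had an unadjusted p under 0.05 and 0 passed after adjustment or with voom. ABCG6 had effects of 2.89 at 24 h, 4.26 at 36 h and 3.47 at 60 h, and GPAT5 2.30, 3.58 and 3.12.

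**Figure D5:**
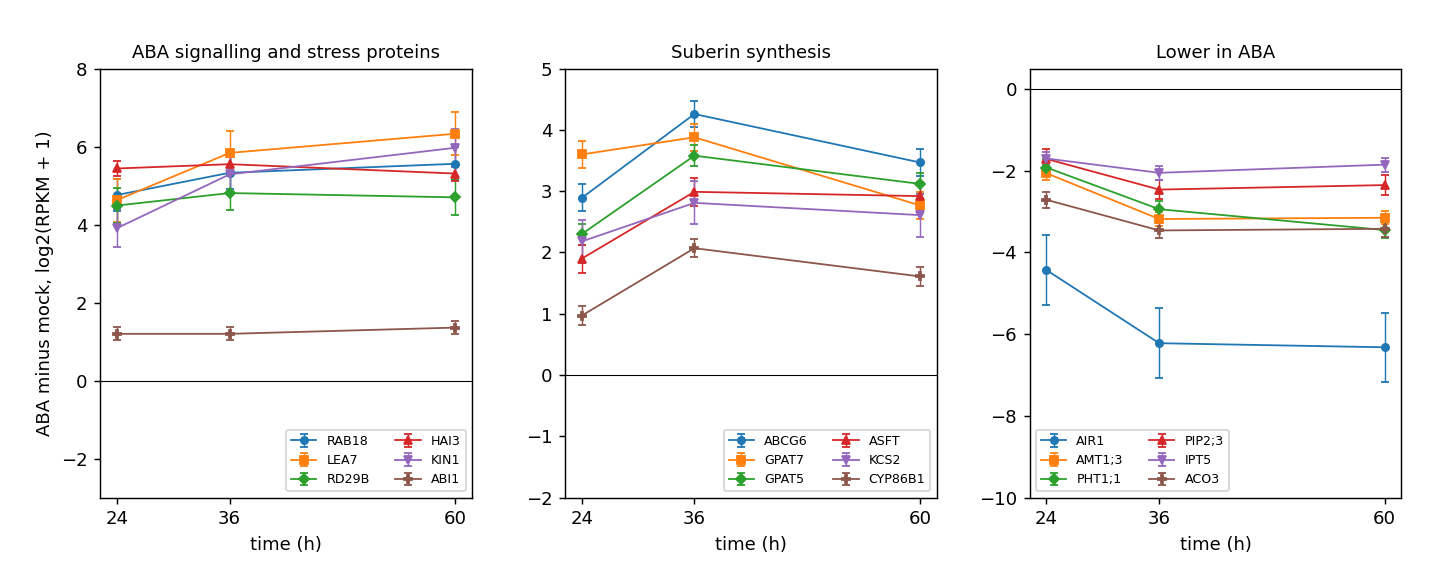
Difference between ABA and mock (vertical axis, log2(RPKM + 1)) at 24, 36 and 60 h (horizontal axis) for 6 genes of ABA signalling and stress proteins, 6 of suberin synthesis and 6 that were lower in ABA. Bars are standard errors of the model, vertical ranges differ between panels, and the suberin genes stand highest at 36 h, where none of their differences from 24 h passed the adjusted test.

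Against the early response the change was wider. With the effect at 4 h subtracted, in a comparison added after the data had been seen, 156 genes (0.852%) were more positive and 305 (1.67%) more negative at 36 h. AZI1, a lipid transfer-like protein of systemic immunity, had 132 and 121 RPKM in ABA and 19.2 and 23.8 RPKM in mock at 36 h, an effect of 2.51, against an effect of -2.07 at 4 h (4.58 ± 0.48, limma adjusted p = 7.66e-05). OSM34, an osmotin, differed by 2.53 at 36 h and by -0.87 at 4 h (3.40 ± 0.41). AT4G37220, annotated as a cold acclimation protein of the WCOR413 family, had 193 and 182 RPKM in ABA and 492 and 608 RPKM in mock at 36 h, an effect of -1.54, against 1.47 at 4 h (-3.01 ± 0.45). SWEET2 had an effect of -2.17 at 36 h and 0.87 at 4 h (-3.05 ± 0.45). Against 12 h, 12 genes (0.0655%) were more positive and 10 (0.0546%) more negative, and AZI1 again led the first set (3.62 ± 0.48). Its call held in all 14 alternatives of both comparisons.

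The calls were also set beside the authors' deposited table for the same comparison. The authors' deposited table gave 2498 genes with an FDR under 0.05, 1442 of them higher and 1056 lower in ABA. Of the genes that passed here, 2266 (89.5%) also passed there, which is 90.7% of the authors' deposited table's calls, all with the same sign.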

How the data were processed

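Poly(A) RNA of whole seedlings was sequenced from a TruSeq Stranded mRNA kit on an Illumina HiSeq instrument, per the labels' protocols. The submitters' processing notes name HTSeq 0.5.4, edgeR 3.6.2 and build TAIR10. The aligner, the counting options and the use of strand are not given in the sources used here, so overlapping genes and near-identical paralogs carry uncertain values. The deposited table holds the authors' RPKM values of 18310 genes in 28 libraries, the authors' log2 fold change and the authors' FDR, an adjusted p-value, for each comparison, per the file headers.

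All values were RPKM multiples of whole reads within 0.01 reads, and the recovered reads (16.3 to 26.6 per library in units of 1000000) served depth statements, the LTP4 and GSTF14 ratios and a voom alternative. The model was fitted to log2(RPKM + 1) values in limma 3.58.1 (R 4.3.3) and had a mean for each of 14 groups over all 28 libraries, a variance trend, two-sided tests and Benjamini-Hochberg adjustment at 0.05 over all genes. An exact permutation test of 2 against 2 libraries cannot go below p = 0.333. The fit was tested on simulated data with known changes. The simulated libraries varied independently, so that test does not cover deviations shared by ABA and mock libraries of the same replicate number.

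The titles give replicate numbers, and no label says what they mark or that ABA and mock libraries of 1 number belong together. The pairing assumes that they do. At 36 h the deviations of replicate 1 from replicate 2 correlated across genes between ABA and mock with r = 0.69. At the other times r was 0.43 to 0.74. Counts with this pairing stand beside the main counts they move by over 1.5 times. With it, 16.0% of all genes were higher and 13.8% lower, the shares against which those counts are to be read.

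Genes were named by rule: the 15 largest changes in each direction, the 5 largest of each difference between times, the 10 most abundant of each group, and members of gene lists and families. The members and lists were chosen with earlier results of these data known, and the family definitions were adjusted after their values were seen. Symbols, positions and promoters come from RefSeq build TAIR10.1, in which 89 genes had no match. Alternatives changed the pseudocount, a low-value filter, the scaling, the test, the pairing, the threshold and the libraries used. A result on 1 listed gene is not reported here.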

Additional observations from a re-analysis of the deposited data

Results flagged for a closer look

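Several genes had an ABA effect that differed between 36 h and another time. Effects are ABA minus mock on the log2(RPKM + 1) scale, and the tests are limma interaction contrasts with adjusted p under 0.05. The comparisons with 12 h and 4 h were added after the data had been seen.

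The ABA effect at 36 h differed from that at 24 h, by the test of the difference, for LAC12 (2.37 at 36 h and 0.68 at 24 h, difference 1.69), LAC5 (2.67 at 36 h and 1.34 at 24 h, difference 1.33) and BG1 (1.86 at 36 h and 0.54 at 24 h, difference 1.32). The calls of LAC12 and BG1 were lost in 12 of 14 alternatives and that of LAC5 in 11 of 14.

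The ABA effect at 36 h differed from that at 60 h, by the test of the difference, for PELPK1 (6.19 at 36 h and 4.53 at 60 h, difference 1.66), UMAMIT14 (2.62 at 36 h and 1.45 at 60 h, difference 1.17) and CYP71A12 (0.04 at 36 h and 1.23 at 60 h, difference -1.18). The calls of PELPK1 and UMAMIT14 were lost in 11 of 14 alternatives and that of CYP71A12 in 10 of 13.

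The ABA effect at 36 h differed from that at 12 h, by the test of the difference, for AZI1 (2.51 at 36 h and -1.11 at 12 h, difference 3.62), AT5G05960 (0.21 at 36 h and -2.08 at 12 h, difference 2.29), AT5G38940 (1.91 at 36 h and -0.23 at 12 h, difference 2.14), CYP71B24 (2.34 at 36 h and 0.32 at 12 h, difference 2.02) and PARP2 (3.17 at 36 h and 1.23 at 12 h, difference 1.94). The same test called SWEET2 (-2.17 at 36 h and 0.23 at 12 h, difference -2.40), TLP-3 (0.52 at 36 h and 2.50 at 12 h, difference -1.98), AT2G41800 (-1.36 at 36 h and 0.43 at 12 h, difference -1.78), AT1G52680 (0.31 at 36 h and 2.04 at 12 h, difference -1.74) and AT4G08360 (-1.98 at 36 h and -0.39 at 12 h, difference -1.60). The call of AZI1 held in every alternative run. SWEET2 lost its call in 10 of 14 alternatives, AT2G41800 in 9, AT5G38940 in 7, CYP71B24 and AT4G08360 in 6, and PARP2 in 4. TLP-3 lost it in 2 of 14, AT1G52680 in 2 of 13 and AT5G05960 in 1 of 14.

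The ABA effect at 36 h differed from that at 4 h, by the test of the difference, for AZI1 (2.51 at 36 h and -2.07 at 4 h, difference 4.58), PAP85 (4.58 at 36 h and 0.13 at 4 h, difference 4.45), AT2G44925 (3.92 at 36 h and 0.22 at 4 h, difference 3.71), AT3G21352 (2.42 at 36 h and -1.11 at 4 h, difference 3.53) and OSM34 (2.53 at 36 h and -0.87 at 4 h, difference 3.40). The same test called AIR1 (-6.22 at 36 h and -1.11 at 4 h, difference -5.11), AT5G42510 (0.67 at 36 h and 3.79 at 4 h, difference -3.13), SWEET2 (-2.17 at 36 h and 0.87 at 4 h, difference -3.05), AT4G07820 (-4.45 at 36 h and -1.40 at 4 h, difference -3.04) and AT4G37220 (-1.54 at 36 h and 1.47 at 4 h, difference -3.01). The calls of AZI1, AT3G21352, OSM34, SWEET2, AT4G07820 and AT4G37220 held in every alternative run. PAP85 and AIR1 lost the call in 6 of 14 alternatives, AT5G42510 in 4 and AT2G44925 in 1.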

How the results depend on the processing

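The count of genes changed by ABA at 36 h, 2531, stayed within 1.5 times under a pseudocount of 0.1, a mean RPKM of at least 1, median-ratio scaling, quantile normalization and voom. It was 5443 with the replicate block, 1241 with only the 4 libraries of 36 h, 1182 with an absolute difference of at least 1, and 1680 (without mock replicate 2) to 1961 (without mock replicate 1) without 1 library. The share of increases was 59.6% and was 54.4% under quantile normalization, where the median difference of all genes was -0.038. Between 36 h and 24 h the 3 calls became 0 under the pseudocount, the filter, the replicate block, quantile normalization and voom, and 0 to 13 without 1 library (13 without ABA 36 h replicate 1, 1 without ABA 24 h replicate 1 and 0 in the other cases). For 36 h against 60 h the 3 calls likewise became 0 under those 5 settings, and 0 to 4 without 1 library (0 with any 1 of the 4 mock libraries left out, 4 without ABA 36 h replicate 1). For 36 h against 12 h the 22 calls became 8 with the pseudocount of 0.1, 70 with the replicate block, 1 with voom, and 7 (without mock 12 h replicate 1) to 23 without 1 library. For the ABA effect at 36 h minus 4 h the 461 calls became 2113 with the replicate block and 193 (without mock 4 h replicate 2) to 314 without 1 library. The cause of these shifts was not tested. Of 919 listed or ranked genes 363 passed at 36 h. None of them changed sign in any alternative, 240 passed whichever library was left out, and the fit of 4 libraries lost 142. The replicate block lost none and added 198. With 2 libraries per group the precision is limited by the number of libraries, and a gene that did not pass may still differ.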

Other observations

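Gene families grouped by their annotation showed changes in both directions. The shares that passed were 42.2% of class III peroxidases, 26.8% of glutathione S-transferases and 35.8% of SAUR genes, against 13.8% of all genes. Of 45 class III peroxidases, secreted enzymes of wall oxidation, 10 rose and 9 fell, with a median of -0.16, 13 of these 19 calls held whichever library was left out, and 14 fell under the replicate pairing. AT2G38380 had 95.5 and 187 RPKM in ABA and 3.34 and 9.98 RPKM in mock (4.29 ± 0.43), and AT5G64100 had 38.4 and 44.2 RPKM in ABA and 252 and 241 RPKM in mock (-2.55 ± 0.24). Of 41 glutathione S-transferases 10 rose and GSTF14 fell, with a median of 0.27, 8 of these calls held whichever library was left out, and 18 rose under the pairing, with GSTU9 at 101 and 117 against 8.32 and 12 RPKM (3.32 ± 0.20). Of 53 SAUR genes, small auxin-responsive genes, 4 rose and 15 fell, with a median of -0.79 and 34 lower under the pairing, and 6 of the 19 calls held whichever library was left out. AT3G12955 rose by 2.15 while AT2G21210 fell by 1.33.

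Of 47 WRKY factors 7 rose and 6 fell, with WRKY6 at 1.29 and WRKY9 at -1.16, 4 of these 13 calls held whichever library was left out, and 12 rose and 11 fell under the pairing. Of 85 bHLH factors 2 rose and 9 fell, 7 of these calls held whichever library was left out, and 8 rose and 21 fell under the pairing. FBH3 had 120 and 99 RPKM in ABA and 20.9 and 14.3 RPKM in mock (2.59 ± 0.26). The shares that passed were 27.7% of WRKY and 12.9% of bHLH factors, against 13.8% of all genes. Of 39 histone genes 2 rose: HIS1-3, a linker histone of drought responses, had 482 and 548 RPKM in ABA and 153 and 149 RPKM in mock (1.76 ± 0.29), and AT1G08170 had 6.18 and 3.98 RPKM in ABA and was listed at 0 in both mock libraries. Under the pairing 3 histone genes rose and 12 fell. Without it the shares that passed were 5.13% of histone genes and 2.41% of genes annotated as ribosomal proteins. Of 290 genes annotated as ribosomal proteins 2 rose and 5 fell, with a median of -0.06, 8 rose and 39 fell under the pairing, and 2 of the 7 calls held whichever library was left out. The guard cell potassium channel GORK had 17.7 and 24.5 RPKM in ABA and 5.29 and 6.15 RPKM in mock (1.70 ± 0.15). It was the only member of 14 stomatal and guard cell genes that passed (7.14%, against 13.8% of all genes). Under the pairing 2 of the 14 rose and 1 fell.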
